A study of Mus musculus with 9 samples.

Results

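The genes described here are receptors for extracellular nucleotides and adenosine, together with the enzyme CD39. They were chosen by name as 10 gene symbols out of the 24411 in the deposited expression table, with no measured value in the rule: P2rx4, P2rx7, P2ry1, P2ry2, P2ry6, P2ry13, P2ry14, Adora2a, Adora2b and Entpd1. Earlier results of these data were known when the choice was made, so counts of calls among them are a description only. Expression was measured by bulk RNA-seq in 9 mouse macrophage lines, 3 each from yolk sac (YS), fetal liver (FL) and bone marrow (BM). All were expanded from unmodified C57BL/6 cells, taken at E9.5 for yolk sac, at E14.5 for fetal liver and from adult mice for bone marrow, and all were kept in 100 ng/mL of macrophage colony-stimulating factor (M-CSF), the cytokine that sustains macrophages. Sequencing reads were 75 nt long.

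Each line grew as a mass culture from its own vessel, and more than 1 mouse contributed to the starting cells. The sources do not say that the lines of a group came from different animals, so every p-value below measures the spread between lines, which may be technical. The lines had been cultured for months and are a model of proliferating macrophages of each origin rather than freshly isolated cells. Their expansion also differed by origin. In BM and FL cultures most adherent cells stopped growing and began to die, and the lines came from colonies that appeared later. YS cultures, started in smaller vessels, also gave colonies but did not necessarily stop growing before. Origin and this culture history cannot be told apart. Because whole cultures were sequenced, fewer cells that express a gene and less RNA per cell cannot be told apart.

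Extracellular ATP leaves stressed or dying cells and acts on P2X receptors, which are ion channels, and on P2Y receptors, which are coupled to G proteins. CD39 and related enzymes on the cell surface break ATP and ADP down to AMP, other enzymes turn AMP into adenosine, and adenosine acts on its own receptors of the Adora family. In macrophages, P2X7 is known for triggering the NLRP3 inflammasome, P2Y6 for the response to UDP, and the Gs-coupled adenosine receptors for raising cyclic AMP.

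Values are TPM, transcript abundances scaled by transcript length and to the same total in each library, so that genes can be compared with each other. Differences between groups are on the log2(TPM + 1) scale, and adjusted p-values are from limma fitted to all 9 libraries and adjusted over the 11753 genes that reached 1 TPM in 3 or more libraries. Calls required a false discovery rate under 0.1 together with more than a 2-fold difference. The read depth behind the TPM is unknown, so no counting error is given.

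The macrophage identity of the lines was checked first. All 10 listed macrophage markers were above 1 TPM in at least 1 line, and their summed level, carried mostly by Tyrobp, Cd68 and Csf1r, was 5496 to 8585 TPM in YS lines, 8165 to 9703 TPM in FL lines and 8336 to 9234 TPM in BM lines. Aif1, another of them, was lower in TPM in BM lines, at 6.53 to 23.47, than in YS and FL lines, at 70.90 to 177.25. No marker of fibroblasts, mast cells or lymphocytes reached 1 TPM in any line. Single genes of other lists did: S100a8 of the neutrophil list was at 10.49 to 25.11 TPM in FL lines and 0 to 5.00 TPM elsewhere, Afp of the hepatocyte list at 8.84 to 20.45 TPM in FL lines and 1.03 to 12.21 TPM elsewhere, and Zbtb46 of the dendritic cell list at 6.03 to 7.09 TPM in YS lines, 2.23 to 6.41 TPM in FL lines and 2.55 to 2.91 TPM in BM lines. The defining genes Elane, S100a9 and Flt3 were listed at 0 in all lines and Alb was at most 0.21 TPM. Any part of these transcripts in the differences below was not tested. YS line 1 stood apart with the lowest Csf1r, the M-CSF receptor, at 1085.83 TPM and the lowest Cd68 at 1018.47 TPM, against at least 1810.88 and 2041.84 TPM in the other lines. BM line 2 stood apart too. It held 214.99 TPM of the globin transcript Hba-a1, against at most 8.62 TPM elsewhere, and 42.10 TPM of Fcgr1, against 5.47 and 1.68 TPM in the other BM lines and 110.13 to 329.94 TPM in YS and FL lines. Fits without either line are given where they changed a call among the 10 genes, and for several differences that were not called.

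The strongest contrast among the 10 genes was P2ry13, which was high in YS and FL lines and listed at 0 in BM lines 1 and 3. Adora2b had the opposite order, with its highest levels in BM lines and its lowest in YS lines. P2rx4 was higher in FL than in BM lines by about the 2-fold needed for a call. P2rx7, P2ry6, P2ry2 and Entpd1 were called in no comparison, and P2ry1, P2ry14 and Adora2a were too low to be tested.

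Of the 7 genes that passed the filter, the comparison of YS against BM called 2, P2ry13 as higher and Adora2b as lower, where 12.8% of all genes tested were called, 7.57% as higher and 5.22% as lower. FL against BM called 2, P2ry13 and P2rx4, both as higher, where 10.3% of all genes were called, 6.01% as higher and 4.30% as lower. YS against FL called 1, Adora2b, as lower, where 3.79% of all genes were called, 1.95% as higher and 1.85% as lower. The 3 lines of one group lay wholly above or below the 3 of the other for 3 of the 7 genes in each comparison. Over all genes tested, groups that did not overlap made up 49.0% (YS against BM), 49.5% (FL against BM) and 26.1% (YS against FL). The median log2 difference of the 7 genes was 0.16, 0.54 and -0.27 in these comparisons, beside 0.11, 0.09 and 0.02 over all genes tested.

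The ATP-gated channels P2X4 and P2X7 are encoded by neighbouring genes on chromosome 5, P2rx4 and P2rx7. Their upstream sequences are shown because the genes lie side by side and P2rx4 was called while P2rx7 was not. Each is the 250 bases before the outermost RefSeq start on GRCm38.p6, 5′ to 3′, plus strand, at chr5:122707294-122707543 for P2rx4 and chr5:122643677-122643926 for P2rx7, with matches to any of 5 motifs in capitals.
P2rx4: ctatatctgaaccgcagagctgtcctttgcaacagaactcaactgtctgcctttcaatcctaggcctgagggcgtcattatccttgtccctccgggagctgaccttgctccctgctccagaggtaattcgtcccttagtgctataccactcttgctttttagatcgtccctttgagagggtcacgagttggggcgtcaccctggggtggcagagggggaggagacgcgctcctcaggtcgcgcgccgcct
P2rx7: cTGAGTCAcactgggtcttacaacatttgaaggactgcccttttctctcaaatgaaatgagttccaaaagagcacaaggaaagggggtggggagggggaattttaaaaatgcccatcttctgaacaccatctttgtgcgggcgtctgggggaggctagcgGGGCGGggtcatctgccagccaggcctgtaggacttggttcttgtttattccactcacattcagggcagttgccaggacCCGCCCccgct

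The motifs were searched on both strands in all 32851 RefSeq windows of this length, and no matches to different motifs overlapped in the windows shown here. The core of ETS factors such as PU.1, spelled GAGGAA, was held by 23.3% of all windows. The AP-1 motif, spelled TGANTCA with N for any base, was held by 6.75%. The motif of C/EBP factors, spelled TTGCNNAA, was held by 9.56%. The SP1 motif, spelled GGGCGG, was held by 32.7%, and the TATA box, spelled TATAAA, by 12.4%. The P2rx4 window held none. The P2rx7 window held 1 AP-1 match, which reads the same on both strands, and 2 SP1 matches. A match is a description of letters and not a measured binding site. The P2rx4 window held 13 CpG dinucleotides and the P2rx7 window 6, the latter equal to the median of all windows.

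P2rx4 was measured at 77.33, 149.79 and 137.03 TPM in the respective YS lines 1, 2 and 3, 146.44, 121.85 and 149.43 TPM in the FL lines and 55.04, 72.21 and 77.73 TPM in the BM lines. All FL lines were above all BM lines, while YS line 1 lay within the range of the BM lines. The FL lines were higher than the BM lines by 1.03 log2 units (standard error 0.25, 95% interval 0.46 to 1.59, limma adjusted p = 0.021). The difference sat at the edge of the 2-fold threshold and was between 0.88 and 0.99 log2 units, no longer called, without FL line 1, FL line 3 or BM line 1, with a pseudocount of 4, and with quantile or median-of-ratios scaling.

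Between YS and BM lines P2rx4 differed by 0.78 log2 units (standard error 0.25, limma adjusted p = 0.046), which is less than 2-fold and was not called. Without YS line 1 the difference was 1.07 (limma adjusted p = 0.0057) and was called. YS line 1 was also the line with the lowest Csf1r and Cd68, and the part of this in its P2rx4 level was not tested. YS and FL lines differed by -0.25 log2 units (limma adjusted p = 0.55), and by 0.05 without YS line 1. Camkk2, which encodes a calcium-dependent kinase, overlaps P2rx4 in the RefSeq gene table and was called in no comparison.

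P2rx7 was nearly level across the 9 lines. It was measured at 34.78, 36.72 and 48.66 TPM in the respective YS lines, 49.55, 35.19 and 36.87 TPM in the FL lines and 38.88, 36.75 and 31.12 TPM in the BM lines, and the 3 groups overlapped. The difference was 0.16 log2 units between YS and BM lines (95% interval -0.25 to 0.56), 0.17 between FL and BM lines (-0.23 to 0.58) and -0.02 between YS and FL lines (-0.42 to 0.39), with limma adjusted p-values of 0.53, 0.55 and 0.96. Each interval lies within 2-fold. The ratio of P2rx4 to P2rx7 came to 3.04 ± 0.948 for YS lines, 3.49 ± 0.549 for FL lines and 1.96 ± 0.541 for BM lines (mean ± SD, n = 3 each). Every FL line was above every BM line in this ratio, and YS line 1, at 2.22, was below BM line 3, at 2.5.

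**Figure D1:**
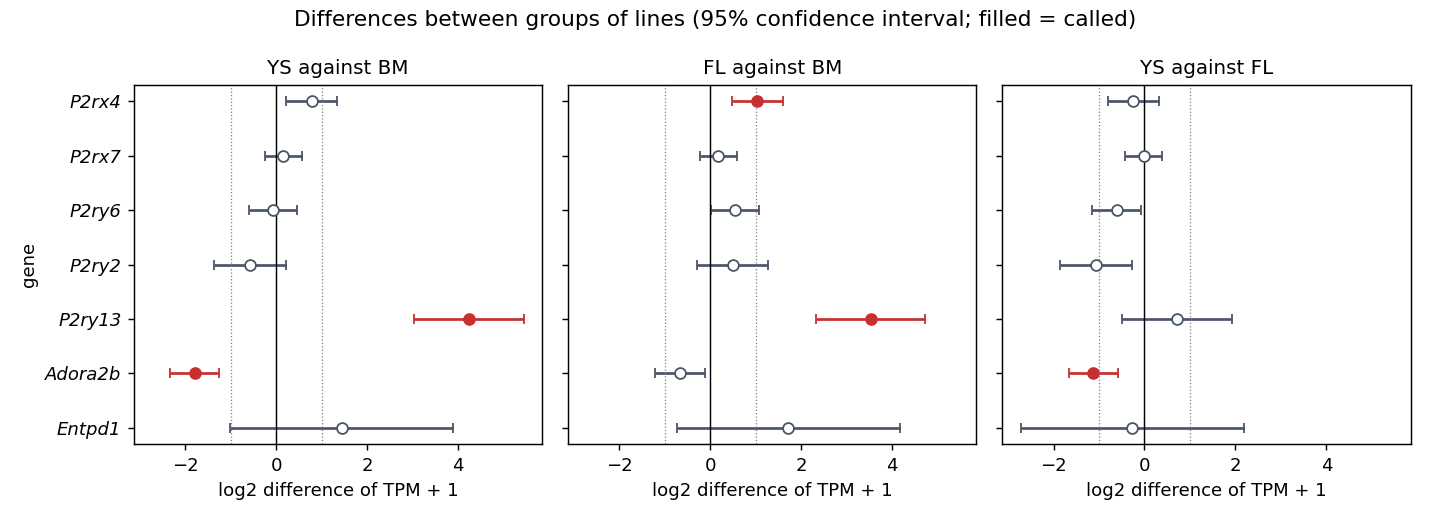
Difference in log2(TPM + 1) with its 95% interval for the 7 genes that passed the filter, in the comparisons of YS with BM, FL with BM and YS with FL lines. Filled points are called genes and dashed lines mark 2-fold. P2ry13 lies far to the right of 2-fold against BM lines, Adora2b to the left in YS lines, the P2rx7 intervals stay inside 2-fold, and the Entpd1 intervals are the widest.

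P2ry13 and P2ry14 encode receptors that signal through inhibitory G proteins, P2Y13 for ADP and P2Y14 for UDP-glucose. Both lie on chromosome 3 within the gene Med12l, on the opposite strand, in a row with P2ry12, the gene of another ADP receptor and a known marker of microglia. The upstream windows of P2ry13 and P2ry12 are shown because both neighbours were higher in YS and FL lines than in BM lines. They lie on the minus strand at chr3:59210883-59211132 and chr3:59262986-59263235 (RefSeq, GRCm38.p6) and are given as described for P2rx4, with motif matches in capitals.
P2ry13: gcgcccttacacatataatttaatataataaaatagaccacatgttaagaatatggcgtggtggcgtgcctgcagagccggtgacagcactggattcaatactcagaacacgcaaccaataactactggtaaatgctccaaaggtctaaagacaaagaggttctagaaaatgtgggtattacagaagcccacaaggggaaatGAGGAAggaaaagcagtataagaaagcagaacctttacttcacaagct
P2ry12: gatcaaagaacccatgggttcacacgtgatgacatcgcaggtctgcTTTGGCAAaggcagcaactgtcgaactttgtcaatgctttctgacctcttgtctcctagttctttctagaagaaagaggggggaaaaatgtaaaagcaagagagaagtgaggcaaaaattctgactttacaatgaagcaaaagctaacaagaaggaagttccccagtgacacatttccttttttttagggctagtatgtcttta

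The P2ry13 window held 1 match, to the ETS and PU.1 core on the strand of the gene, 48 to 43 bases before the start. The P2ry12 window held 1 C/EBP match on the other strand. Bases shortly after its RefSeq start were found in no P2ry12 transcript of the GENCODE annotation, unlike those of the other windows shown. Both windows were 41.6% G and C, against a median of 52.4% over all windows, and held 5 and 3 CpG dinucleotides.

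P2ry13 was at 31.14, 37.96 and 23.30 TPM in YS lines, at 20.08, 18.81 and 15.52 TPM in FL lines, and in BM lines it was listed at 0 in lines 1 and 3 and at 3.50 TPM in line 2. Neither the YS nor the FL lines overlapped the BM lines, and the YS lines all lay above the FL lines. On the log2(TPM + 1) scale, which understates differences from values near 0, YS lines were 4.24 higher than BM lines (standard error 0.53, 95% interval 3.04 to 5.44, limma adjusted p = 0.002) and FL lines 3.53 higher (standard error 0.53, limma adjusted p = 0.003). YS and FL lines differed by 0.71 (limma adjusted p = 0.42), which was not called although the lines did not overlap.

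BM line 2, the line with globin transcripts and the highest Fcgr1 of its group, was also the BM line with P2ry13. Its P2ry13 level was 9.22% of that in YS line 2, and its P2ry12, Med12l and P2ry14 levels were 17.7%, 22.6% and 9.56% of those in YS line 2. YS line 2 serves here as a reference only. Over all tested genes, BM line 2 was closest to BM line 1 (Pearson's r of log2(TPM + 1) 0.979). Among YS and FL lines it was closest to YS line 2 (0.934). The ratio of P2ry12 to P2ry13 was 3.65 in BM line 2, 1.34 to 1.90 in YS lines and 3.06 to 4.04 in FL lines. Without BM line 2 the P2ry13 difference was 4.96 between YS and BM lines and 4.25 between FL and BM lines (limma adjusted p = 3.4e-05 and 0.00011). Both remaining BM lines were listed at 0, so the BM group had no spread in that fit. The smaller p-values are thus not a measure of agreement between BM lines. The part of the other transcripts of BM line 2 in its P2ry13 level was not tested.

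Marker lists of other cell types were set beside P2ry13. The 5 listed genes of megakaryocytes and platelets, cells that also carry ADP receptors, summed to 231 to 2125 TPM in YS lines, 616 to 1730 TPM in FL lines and 39.4 to 394 TPM in BM lines. Pf4, a chemokine that macrophages can also express, made up nearly all of this sum. Itga2b, the defining integrin of that lineage, was at most 0.36 TPM in any line. Gp9 of the same list reached 3.78, 0.60 and 1.17 TPM among the respective YS lines, with a value of 0 outside that group. Ppbp spanned 0.14 to 1.46 TPM among YS lines and 0.15 to 0.95 TPM among FL lines. Only line 2 of the BM group held Ppbp, with 0.41 TPM. Gp1ba, from 0.12 to 1.16 TPM, did not separate the groups. The 5 endothelial genes summed to 22.0 to 56.0 TPM in YS lines, 18.9 to 51.8 TPM in FL lines and 0.14 to 2.64 TPM in BM lines, mostly from Kdr and Tie1. Neither gene separated YS from BM lines. Kdr was at 0.29 TPM in YS line 1, below the 0.86 TPM of BM line 2. Tie1 was listed at 0 in YS line 3 and in FL lines 2 and 3, below every BM line. Cdh5 was low, at 0.14 to 1.36 TPM in YS lines and 1.26 to 1.38 TPM in FL lines. BM lines held at most 0.28 TPM of Cdh5, in line 2, which was above YS line 1. All FL lines were above all BM lines in Kdr and Cdh5. Emcn was listed at 0 throughout. Epor of the erythroid list was at 0.49 to 6.43 TPM in YS lines, 1.60 to 5.29 TPM in FL lines and at most 0.62 TPM in BM lines. Aif1 and Fcgr1 of the macrophage list had the same low levels in BM lines as given above. The rest of that list did not share this. Tyrobp was higher in BM lines, at 2991.78 to 3311.62 TPM, against 1852.28 to 2686.80 TPM in YS and FL lines. For Csf1r, Adgre1, Itgam, Cd68, Spi1, Mertk and Ptprc the BM lines overlapped the YS lines. The part of these transcripts in the P2ry13 difference was not tested.

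The neighbouring P2ry12 was at 41.73, 72.13 and 40.59 TPM in YS lines, at 81.04, 57.64 and 54.08 TPM in FL lines. BM line 2 had 12.76 TPM, and the other BM lines were listed at 0. It was higher than in BM lines by 4.4 in YS lines and by 4.7 in FL lines (limma adjusted p = 0.0097 and 0.0077), and differed by -0.34 between YS and FL lines (limma adjusted p = 0.83). Med12l, whose transcripts run across the cluster, was at 1.17 to 1.75 TPM in YS lines and 0.54 to 1.78 TPM in FL lines, and was listed at 0 in BM lines 1 and 3. It was called higher in YS than in BM lines by 1.16 log2 units (limma adjusted p = 0.019) and differed by 0.93 between FL and BM lines (limma adjusted p = 0.052). Without BM line 2 the P2ry12 differences were 5.66 and 6.01 (limma adjusted p = 5.1e-05 and 5.3e-05), and those of Med12l were 1.31 and 1.07 (limma adjusted p = 0.035 and 0.077), both called. In that fit too the remaining BM lines were listed at 0 for both genes and had no spread. The Med12l call in YS lines was lost with a pseudocount of 4 (0.41). The library kit kept the strand, but the sources do not say whether strand was used in counting, so reads of Med12l and of the receptors on its opposite strand may not be fully separated. Gpr171, which also lies within Med12l, was at 0.07 TPM or less in every line.

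P2ry14 was low, with 0.27, 2.72 and 1.3 TPM in YS lines, and FL lines 1 and 3 had 0.21 and 0.67 TPM. BM line 2 had 0.26 TPM, and FL line 2 and the other BM lines were listed at 0. Only 2 libraries reached 1 TPM, so it was not among the genes tested. YS line 1 was close to FL line 1 and BM line 2, and the groups overlapped. In a fit with no filter, the difference between YS and BM lines was 1.04 (limma adjusted p = 0.19) and was not called.

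**Figure D2:**
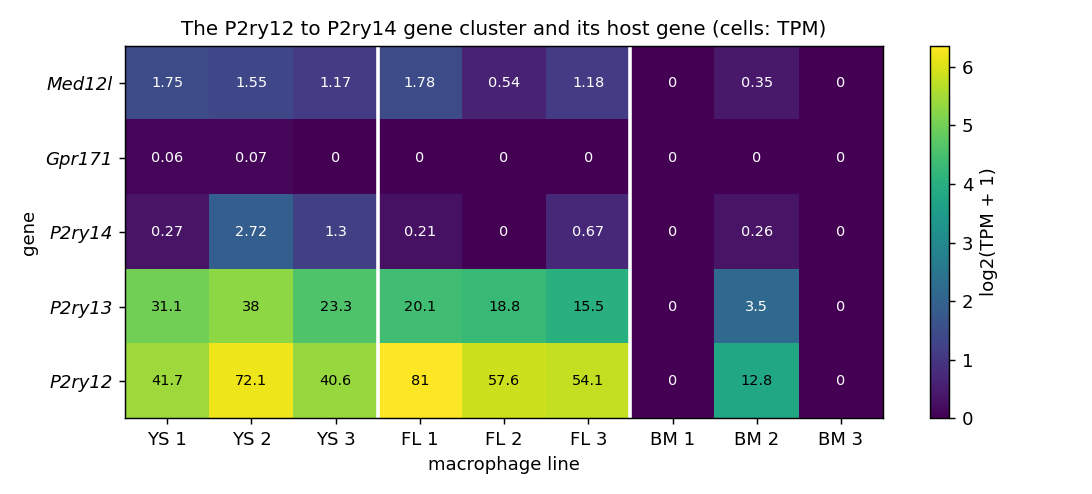
Heatmap of Med12l, Gpr171, P2ry14, P2ry13 and P2ry12 on chromosome 3 (rows) in the 9 lines (columns), with log2(TPM + 1) as colour and the TPM printed in each cell. P2ry12 and P2ry13 are between 15.52 and 81.04 TPM in YS and FL lines, BM line 2 holds 12.76 and 3.50 TPM, and BM lines 1 and 3 are listed at 0.

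P2ry6, P2ry2 and P2ry1 encode receptors that signal through Gq, for UDP, for UTP and ATP, and for ADP. P2ry6 was the most abundant P2Y transcript in every line. It was measured at 83.09, 158.84 and 158.18 TPM in the respective YS lines, 177.13, 215.36 and 197.52 TPM in the FL lines and 128.51, 146.24 and 129.29 TPM in the BM lines. All FL lines were above all YS and BM lines, and YS line 1 was the lowest of the 9.

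The FL lines differed from BM lines in P2ry6 by 0.54 log2 units (standard error 0.23, limma adjusted p = 0.14) and the YS lines differed from FL lines by -0.61 (limma adjusted p = 0.15), so neither comparison was called. Without YS line 1 the difference of FL from BM lines kept its size with a smaller error (limma adjusted p = 0.0069), still under 2-fold, and that of YS from FL lines was -0.30 (limma adjusted p = 0.14). Between YS and BM lines it was -0.07 (limma adjusted p = 0.84) and turned to 0.24 without YS line 1.

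P2ry2, a neighbour of P2ry6 on chromosome 7, was far lower. It was measured at 2.86, 5.20 and 7.13 TPM in the respective YS lines, 15.46, 13.55 and 6.46 TPM in the FL lines and 8.26, 7.42 and 7.34 TPM in the BM lines. The YS lines were all below the BM lines, and FL line 3 lay among the YS lines. YS and FL lines differed by -1.07 log2 units (standard error 0.35, limma adjusted p = 0.1), just short of a call. This became a call without YS line 3 (-1.31), without FL line 3 (-1.42), and with quantile (-1.04) or median-of-ratios scaling (-1.08). Against BM lines the difference was -0.58 in YS lines and 0.49 in FL lines (limma adjusted p = 0.24 and 0.37). The first was -0.29 without YS line 1, and the second 0.27 without FL line 1 and 0.84 without FL line 3. P2ry6 exceeded P2ry2 by 22.2 to 30.5 times in YS lines, 11.5 to 30.6 times in FL lines and 15.6 to 19.7 times in BM lines.

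P2ry1 reached 0.04, 0.08 and 0.05 TPM in YS lines, whereas every FL and BM line was listed at 0. At this level it was not tested, and no fold is given against lines listed at 0.

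The P2Y transcripts of a line were also summed over P2ry1, P2ry2, P2ry4, P2ry6, P2ry12, P2ry13 and P2ry14. The sum in TPM was 159, 277 and 231 for YS lines, 294, 305 and 274 for FL lines and 137, 170 and 137 for BM lines. P2ry12, P2ry13 and P2ry14, the receptors coupled to inhibitory G proteins, made up 46.0%, 40.7% and 28.3% of it in YS lines, 34.5%, 25.0% and 25.6% in FL lines and 0%, 9.71% and 0% in BM lines. P2ry6 made up 52.2% to 68.6% in YS lines, 60.2% to 72.0% in FL lines and 85.9% to 94.6% in BM lines. BM lines were thus outside the range of YS and FL lines in both shares, with BM line 2 nearest to it. The shares are ratios of the levels given above and were not tested again.

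**Figure D3:**
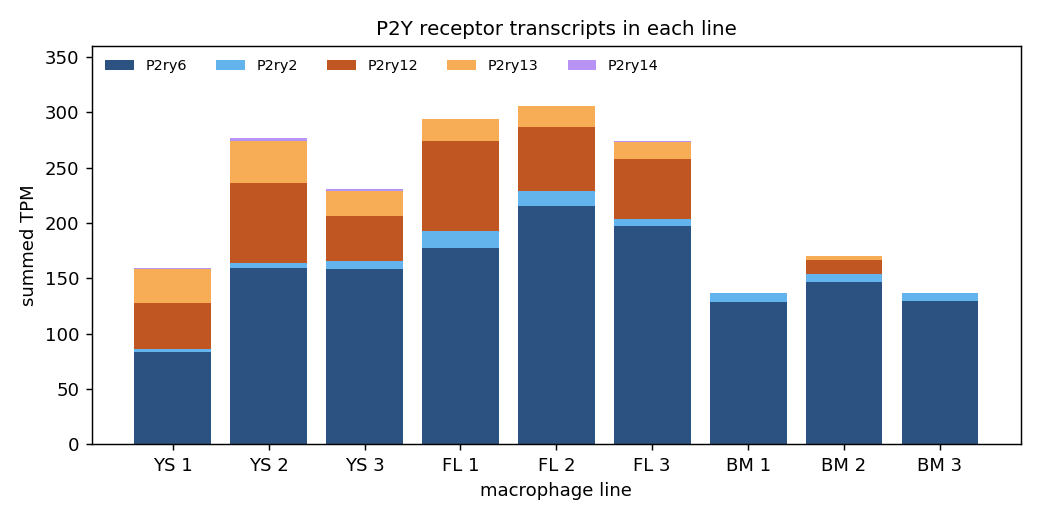
Stacked TPM of the P2Y receptor transcripts P2ry2, P2ry6, P2ry12, P2ry13 and P2ry14 in each of the 9 lines, on an axis from 0 (P2ry1 and P2ry4 are too low to be seen and are left out). P2ry6 forms the largest block in every line, and the blocks of P2ry12 and P2ry13 are seen in all YS and FL lines and, among BM lines, in line 2.

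Adora2b and Adora2a encode adenosine receptors that raise cyclic AMP through Gs, of which the Adora2b product has the lower affinity for adenosine. The upstream window of Adora2b is shown because its transcript ran opposite to P2ry13. It lies on the plus strand at chr11:62248734-62248983 (RefSeq, GRCm38.p6), with motif matches in capitals.
Adora2b: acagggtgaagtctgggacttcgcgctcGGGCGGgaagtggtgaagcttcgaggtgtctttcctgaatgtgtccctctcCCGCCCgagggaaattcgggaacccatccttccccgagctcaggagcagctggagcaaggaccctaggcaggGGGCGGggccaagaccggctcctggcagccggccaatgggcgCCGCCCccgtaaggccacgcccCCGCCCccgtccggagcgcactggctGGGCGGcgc

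All 6 matches in this window were to the SP1 motif, 3 on each strand, where 32.7% of all windows held at least 1. It was 69.6% G and C and held 22 CpG dinucleotides, the most of the 5 windows shown.

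Adora2b was measured at 2.20, 2.91 and 1.65 TPM in the respective YS lines, 4.85, 8.01 and 5.52 TPM in the FL lines and 11.69, 8.01 and 11.17 TPM in the BM lines. The YS lines were below all others, and FL line 2 and BM line 2 had the same value. YS lines were lower than BM lines by 1.80 on the log2 scale (difference -1.80, standard error 0.24, limma adjusted p = 0.0024) and lower than FL lines (difference -1.12, standard error 0.24, limma adjusted p = 0.043). The difference of FL from BM lines was -0.67 (limma adjusted p = 0.083), which is under 2-fold and was not called.

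The call between YS and BM lines was kept in every alternative run, including the fit without BM line 2 (-1.95). The call between YS and FL lines was lost without YS line 3 (-0.99), FL line 2 (-0.94) or FL line 3, with YS line 1 and BM line 2 left out together (-1.12, limma adjusted p = 0.1), with no filter, with a pseudocount of 4, and in a fit restricted to the 6 libraries compared. Adora2a was at 0.33, 0.12 and 0.07 TPM in YS lines, at 0.06 TPM in FL lines 1 and 3, and listed at 0 in FL line 2 and all BM lines, and was not tested.

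Entpd1 encodes CD39, the ectoenzyme that removes ATP and ADP from the cell surface. It was measured at 21.40, 6.89 and 0.62 TPM in the respective YS lines, 14.71, 0.90 and 15.78 TPM in the FL lines and 3.21, 0.53 and 1.23 TPM in the BM lines. YS line 3 and FL line 2 were as low as the BM lines, and the other YS and FL lines were above every BM line. Group means were 9.64 ± 10.7 TPM for YS lines, 10.5 ± 8.30 TPM for FL lines and 1.66 ± 1.39 TPM for BM lines (mean ± SD, n = 3 each).

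No comparison of Entpd1 was called, with differences of 1.44 (YS against BM), 1.71 (FL against BM) and -0.27 (YS against FL, limma adjusted p = 0.34, 0.31 and 0.9 in this order). Without YS line 3 the difference between YS and BM lines was 2.45 (limma adjusted p = 0.098) and was called, while without YS line 1 it was 0.56. The difference of FL from BM lines was 2.74 without FL line 2 (limma adjusted p = 0.1, not called) and 1.17 without FL line 3. The difference between YS and FL lines turned positive without YS line 3, FL line 1 or FL line 3. Leaving out YS line 1 and BM line 2 together, a setting chosen after the data were seen, gave 0.22 for YS against BM and -1.15 for YS against FL.

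Entpd1 lies on chromosome 19, where many genes were lower in YS and FL lines than in BM lines. Of 403 other tested genes on that chromosome, 19.1% were called lower in YS than in BM lines and 24.6% lower in FL than in BM lines, beside 5.22% and 4.30% of all genes tested. Their median log2 difference was -0.52 and -0.80. Tctn3, the gene next to Entpd1, which encodes a protein of the ciliary transition zone, was at 10.65 to 13.16 TPM in YS lines, 9.59 to 11.47 TPM in FL lines and 22.82 to 25.32 TPM in BM lines. It was called lower in FL than in BM lines (log2 difference -1.08, limma adjusted p = 0.0015). The fitted differences of Entpd1 against BM lines were thus of the opposite sign to the median of its chromosome, with intervals too wide for a call.

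For each of the 7 genes tested, the 2 genes with the most similar pattern over the 9 lines were found by Pearson's r of log2(TPM + 1), as a description only, since the lines share their groups. P2ry13 was closest to Sept6 (r = 0.99), which encodes a septin of the cytoskeleton, and to Tlr1 (r = 0.988), a receptor for bacterial lipopeptides. Sept6 shared the exception of BM line 2, with 5.47 TPM there, 0.04 TPM in BM line 1 and a listed value of 0 in BM line 3. Adora2b was closest to Lrp1 (r = 0.983), an endocytic receptor, and Map1lc3a (r = 0.980). P2ry6 was closest to Dctn3 (r = 0.989) and Renbp (r = 0.971), P2rx4 to Cdkl3 and Uba1 (r = 0.974 each), P2rx7 to Atp10d (0.935) and Cnpy4 (0.934), P2ry2 to Smad2 and Zfp97 (0.949 each), and Entpd1 to Cnn2 (0.937) and Ino80d (0.927).

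Around the receptors, 83 further genes of nucleotide signalling were listed in 6 groups, and 44 of the 80 found in the table were tested. YS against BM called 4 of them (9.09%), with 2 in each direction. FL against BM called 9 (20.5%), of which 5 were higher in FL lines, and YS against FL called 2 (4.55%), 1 in each direction. The shares over all genes tested were those given above, 12.8%, 10.3% and 3.79%.

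Of the other receptors, P2ry12 alone passed the filter. Adora1 and P2ry10 were listed at 0 in all lines. Among the 6 tested enzymes of nucleotide hydrolysis, related to CD39 in function, none was called in any comparison. Entpd4, an enzyme of the Golgi and lysosomes, was at 25.72 to 31.11 TPM in BM lines and 40.32 to 57.74 TPM in YS and FL lines, and the groups did not overlap, but the differences of 0.63 in YS lines and 0.86 in FL lines were under 2-fold (limma adjusted p = 0.013 and 0.0042). Entpd7, a related intracellular enzyme, had the reverse order, at 11.02 to 13.40 TPM in BM lines and 6.75 to 8.60 TPM in the others, again under 2-fold. Entpd5, Entpd6 and Cant1, also at 10 TPM or more in the mean of a group, showed differences under 2-fold in all 3 comparisons. Enpp1, the remaining tested enzyme, was scattered, at 7.11, 0.37 and 17.14 TPM in FL lines. It was at 0.36 to 4.02 TPM in YS lines and at most 0.91 TPM in BM lines. Its differences of 2.24 (FL against BM) and -1.45 (YS against FL) exceeded 2-fold but were not called (limma adjusted p = 0.12 and 0.34). Nt5e, which encodes CD73, the enzyme that makes adenosine from AMP, was at 0.07 TPM or less in every line, and Alpl and Enpp2 were listed at 0.

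The 9 tested genes of adenosine uptake and breakdown had the most calls, 5 of 9 between FL and BM lines. Adk, which encodes adenosine kinase, was at 103.77, 88.42 and 93.60 TPM in FL lines and 42.06, 49.39 and 38.55 TPM in BM lines and was higher in FL lines (log2 difference 1.12, limma adjusted p = 0.0029). Slc29a3, a nucleoside transporter of lysosomes, was higher by 1.45 and Ada, adenosine deaminase, by 1.03 (limma adjusted p = 0.0033 and 0.022). Slc29a2, an equilibrative nucleoside transporter, was lower (-1.20, limma adjusted p = 0.0095), as was Pnp2 (-2.01, limma adjusted p = 0.0035). With a pseudocount of 4, Slc29a2 (-0.63) and Ada (0.57) were no longer called. Ada was also under 2-fold with either scaling (0.89 and 0.96) and without FL line 2 (0.97), BM line 2 (0.94) or BM line 3 (0.998). Between YS and BM lines Pnp2 was the single call of this list (-1.54, limma adjusted p = 0.0097). Pnp2 is a near-identical copy of Pnp, which encodes purine nucleoside phosphorylase, and the division of reads between them is uncertain. Pnp itself was at 241.60 to 306.87 TPM in YS and FL lines and 132.99 to 184.57 TPM in BM lines, under 2-fold, and Slc29a1 and Ahcy were called in no comparison. Slc28a2, a concentrative nucleoside transporter, was at 0.04 TPM in YS line 1 and 18.94 to 47.40 TPM in the other 8 lines.

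Among 8 tested genes of nucleotide release, Slc17a9, which encodes the vesicular nucleotide transporter, was the one call between YS lines and each of the other groups. It was measured at 0.20, 0.28 and 0.24 TPM in the respective YS lines, 14.44, 6.37 and 7.25 TPM in the FL lines and 5.04, 3.27 and 4.93 TPM in the BM lines. YS lines were below all others, by -2.98 against FL lines and -2.11 against BM lines (limma adjusted p = 0.004 and 0.0029), the latter just under 2-fold with a pseudocount of 4 (-0.98). Ank, which encodes a transporter of pyrophosphate and ATP, was lower in FL than in BM lines (-1.64, limma adjusted p = 0.0061). Panx1, the pannexin channel through which ATP leaves cells, was at 7.25 to 26.67 TPM with all groups overlapping. Xpr1 and the volume-regulated channel genes Lrrc8a, Lrrc8b, Lrrc8c and Lrrc8d were not called either.

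Of the 8 genes acting below P2X7, Il18, a cytokine matured by the inflammasome, was called higher in YS than in BM lines (1.42, limma adjusted p = 0.033). FL lines, at 38.39 to 77.42 TPM, were also all above BM lines, at 17.62 to 30.45 TPM. That difference of 1.06 was just short of a call (limma adjusted p = 0.1) and became one with a filter of 5 TPM (limma adjusted p = 0.097). Il1b was called higher in FL than in BM lines (1.66, limma adjusted p = 0.012), at levels of 1.03 to 3.42 TPM in FL lines and at most 0.22 TPM in BM lines, and this call was lost with a pseudocount of 4 (0.67). The Il18 call between YS and BM lines was lost without BM line 3 (1.23) and with no filter, both at a limma adjusted p of 0.12. Gsdmd, the pore-forming protein of pyroptosis, was at 59.55, 35.50 and 106.03 TPM in FL lines, below all YS and BM lines (log2 difference -1.08 from BM lines and 1.09 for YS over FL lines, limma adjusted p = 0.048 and 0.086). The first call was lost in 7 of 21 alternatives, 5 of them leaving out a single line, and the second in 14 of 21, with 8 of the 9 single lines left out. Without FL line 2 the differences were -0.70 and 0.71. Nlrp3 was at 28.53 to 32.96 TPM in FL lines and 52.64 to 57.83 TPM in BM lines, a difference of -0.80 that is under 2-fold (limma adjusted p = 0.01). Casp1, Pycard, Nek7 and Ano6 were called in no comparison. None of the 12 tested G proteins and effectors of these receptors was called in any comparison, and Gnai2, the main inhibitory G protein, had means of 953, 1084 and 824 TPM in YS, FL and BM lines. The others at 10 TPM or more in the mean of a group were Gnai3, Gnaq, Gna11, Gna12, Gna13, Gna15, Gnas, Plcb3, Adcy7 and Adcy9, and also Plcb2, a phospholipase of the Gq pathway, which was at 38.41 TPM in YS line 1, 5.92 TPM in YS line 2 and at most 0.18 TPM elsewhere and did not pass the filter.

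**Figure D4:**
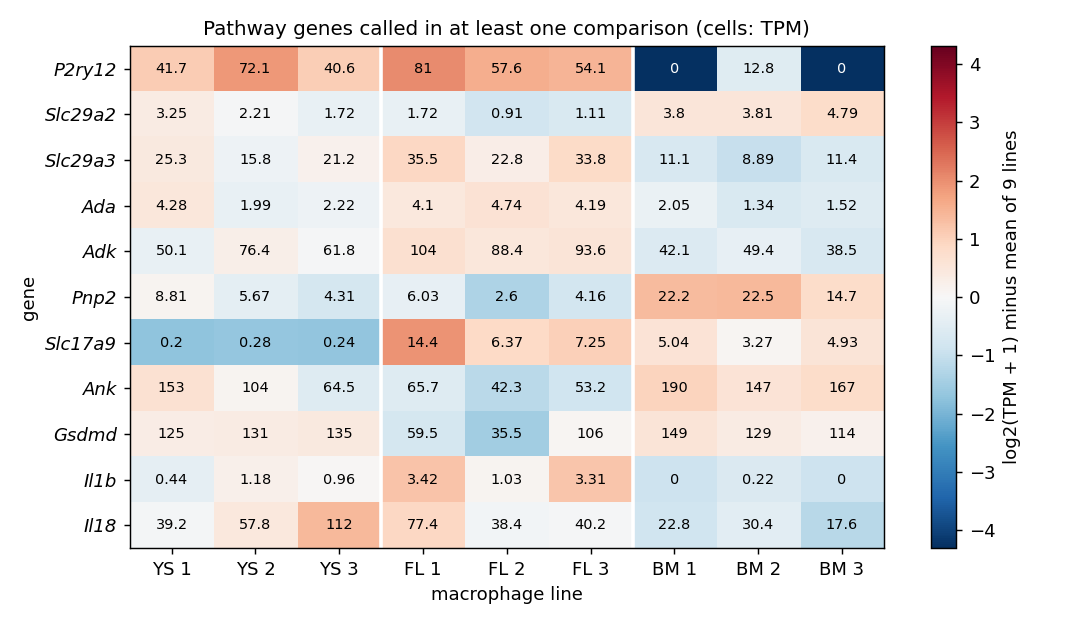
Heatmap of the listed nucleotide signalling genes called in at least 1 comparison (rows) in the 9 lines (columns), with log2(TPM + 1) minus the mean of the 9 lines as colour and the TPM printed in each cell. P2ry12 is lowest in BM lines and Slc17a9, at 0.20 to 0.28 TPM, is lowest in YS lines.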

How the data were processed

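RNA was taken from 9 macrophage lines (3 YS, 3 FL and 3 BM lines). The authors made poly(A)-selected, strand-keeping libraries and deposited TPM rounded to 2 decimals, with equal totals in all libraries. The submitters' processing notes name Trim Galore 0.6.6, STAR 2.7.9a and RSEM 1.3.3. The genome build and annotation behind the table are not given in the sources used here. Lines were assigned to groups from the sample labels.

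From the TPM, log2(TPM + 1) was fitted in limma 3.58.1 (R 4.3.3) as a linear model of group over all 9 libraries, with empirical Bayes moderation, an intensity trend and Benjamini-Hochberg adjustment within each of 3 comparisons. Genes under 1 TPM in more than 6 libraries were left out. Pseudocount, filter, scaling, trend, samples fitted, thresholds, a replicate block and the leaving out of single lines were varied. On simulated data for YS against BM lines, with 200 of 11753 genes changed 4-fold, the fit called 94.5% of them and 2.58% of its calls were unchanged genes. The changed genes were drawn from the more highly expressed ones, with normal noise of the same spread in all groups. These rates therefore do not cover low genes, values listed at 0 or differences near 2-fold. With 3 lines against 3, an exact permutation test cannot go below p = 0.1, and none is quoted.

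All 10 genes were named, with pathway genes that were called or at 10 TPM or more in the mean of a group, the 2 genes most alike each tested gene, and neighbouring genes that share a locus. The genes and lists were chosen with earlier results of these data known. Nt5e, Il1b, Alpl, Enpp1, Enpp2, Adora1, P2ry10, Slc28a2 and Plcb2 were singled out after their values were seen. Motifs were searched in RefSeq upstream windows (GRCm38.p6), which were found for 8 of the 10 genes.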

Additional observations from a re-analysis of the deposited data

How the results depend on the processing

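Alternatives changed the value of a difference of the 7 tested genes in 229 cases, of which 11 turned its sign. The calls of P2ry13 against BM lines and of Adora2b between YS and BM lines held in every alternative, and P2ry13 ranged from 2.80 to 6.52 (YS against BM) and 2.16 to 5.78 (FL against BM). Quantile and median-of-ratios scaling moved the median of all genes between YS and BM lines from 0.11 to -0.01 and 0.00 log2 units, and quantile scaling turned the split of all calls there from 890 higher and 614 lower to 724 and 763, and between FL and BM lines from 706 and 505 to 592 and 593. The calls between FL and BM lines among the 7 genes fell from 2 to 1 (P2rx4 lost) with a pseudocount of 4 and with either scaling, and were 1 to 2 with single lines left out. Those between YS and FL lines went from 1 to 0 with a pseudocount of 4, no filter, only the 6 libraries of both groups, or YS line 1 and BM line 2 left out together, to 2 with either scaling (P2ry2 joined), and were 0 to 1 with single lines left out. With no fold threshold, 18, 21 and 7 pathway genes were called (YS against BM, FL against BM, YS against FL) in place of 4, 9 and 2, and with a pseudocount of 4 the 9 became 6 (Ada, Slc29a2 and Il1b lost). Between YS and FL lines the 2 pathway calls became 1 with no filter, no trend, only the 6 libraries, a false discovery rate under 0.05, or YS line 1 and BM line 2 left out, and were 1 to 3 with single lines left out. Reversed signs were seen only in uncalled differences. With YS line 1 and BM line 2 left out, YS against FL became 0.0467 for P2rx4 and 0.0756 for P2rx7, and YS against BM became 0.30 for P2ry6. With single lines left out, YS against FL ranged from -0.43 to 0.0467 for P2rx4, from -0.16 to 0.13 for P2rx7 and from -1.30 to 0.74 for Entpd1, and YS against BM from -0.23 to 0.24 for P2ry6. Apart from the changes made by the thresholds themselves and by leaving lines out, the cause was not tested.

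No pairing by replicate number was seen: the correlation of deviations between same-numbered lines was -0.12 to 0.088, and 0 of 9 pairs exceeded 0.1. Differently numbered lines of different groups spanned -0.14 to 0.12. With so few lines this cannot show whether same-numbered lines were prepared or sequenced together. With the replicate block the calls among the 7 genes stayed at 2, 2 and 1, and the pathway calls were 4, 9 and 1. The TPM hold no read depth, so differences among genes under 1 TPM, such as P2ry1 and Adora2a, could not be judged against counting error.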
